A study of Mus musculus with 8 samples.

Results

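The genes of glycolytic enzymes and of lactate dehydrogenase were compared between ribosome-bound mRNA of glutamatergic neurons and mRNA of the surrounding ventral pallidum (VP). The set held 10 genes chosen by name: *Hk1*, *Gpi1*, *Pfkm*, *Pfkp*, *Aldoa*, *Pgk1*, *Eno1*, *Eno2*, *Ldha* and *Ldhb*. All 10 had a row among the 14353 genes of the deposited table and all 10 passed the filter on low values. The VP is a basal forebrain region that receives input from the nucleus accumbens. Translating ribosome affinity purification (TRAP) was done in RiboTag mice, in which Cre switches the large-subunit protein made from *Rpl22* to a version with an HA epitope, so that anti-HA beads pull down ribosomes of Cre-expressing cells with the mRNA on them. All mice were untreated adults, homozygous for vGluT2-Cre, which is driven from *Slc17a6*, and heterozygous for the *Rpl22* RiboTag allele. TRAP and INPUT therefore shared 1 genotype and differed only in the RNA fraction. Pools VP1.6 and VP2.2, and likewise pools VP2.6 and VP2.11, gave 1 TRAP and 1 INPUT library each (n = 4 libraries per fraction). A pool combined 7 to 11 mice, with males and females in each, and 38 mice were used. Mice were 9 to 12 weeks old in VP1.6 and 10 to 16 weeks old in the other pools. INPUT is mRNA of the whole tissue by the labels, although the methods also name an unbound fraction. Dissected tissue could include some neighbouring striatum, and the HA tag marks any cell in which vGluT2-Cre was active, not a single neuron type.

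Glycolysis splits glucose into pyruvate in the cytosol, with net production of ATP and NADH. Hexokinase, phosphofructokinase and pyruvate kinase catalyse its essentially irreversible steps. Lactate dehydrogenase interconverts pyruvate and lactate, oxidising NADH when lactate is made and reducing NAD+ when pyruvate is made. Many steps have several isoenzymes, and brain cell types use different ones. Enolase 2 is the classical neuron-specific enolase and aldolase C is abundant in astrocytes. Astrocytes are held to release lactate that neurons take up and oxidise, and the lactate dehydrogenase subunits encoded by *Ldha* and *Ldhb* are often discussed in that setting, since tetramers rich in the B subunit favour the use of lactate.

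The upstream sequences of both enolase and both lactate dehydrogenase genes are shown because each pair splits 1 late step of the pathway between isoenzymes. *Eno1* and *Ldha* are textbook targets of hypoxia-inducible factors, whose core site is ACGTG or GCGTG. Each stretch ends at the base before a RefSeq start site (GRCm38.p6) and is written 5′ to 3′ on the strand of the gene. The start site with the longest stretch free of annotated exons was used, of at most 250 bases. Between stretches of equal length, the one with the most CpG dinucleotides was taken. The *Eno2* stretch is 189 bases because 61 further bases belong to exons of *Lrrc23*. Capitals mark either core site, read on either strand. The *Eno1* stretch is chr4:150236458-150236707 (plus strand), the *Eno2* stretch is chr6:124769674-124769862 (minus strand), the *Ldha* stretch is chr7:46845554-46845803 (plus strand) and the *Ldhb* stretch is chr6:142507958-142508207 (minus strand).
Eno1: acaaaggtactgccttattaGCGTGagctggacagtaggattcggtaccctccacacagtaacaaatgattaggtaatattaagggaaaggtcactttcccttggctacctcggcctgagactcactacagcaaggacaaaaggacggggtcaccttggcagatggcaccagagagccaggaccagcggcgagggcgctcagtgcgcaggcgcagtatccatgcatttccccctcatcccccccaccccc
Eno2: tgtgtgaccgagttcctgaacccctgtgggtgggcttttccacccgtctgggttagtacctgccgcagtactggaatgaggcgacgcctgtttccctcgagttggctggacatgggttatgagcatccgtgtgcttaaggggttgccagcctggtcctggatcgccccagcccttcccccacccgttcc
Ldha: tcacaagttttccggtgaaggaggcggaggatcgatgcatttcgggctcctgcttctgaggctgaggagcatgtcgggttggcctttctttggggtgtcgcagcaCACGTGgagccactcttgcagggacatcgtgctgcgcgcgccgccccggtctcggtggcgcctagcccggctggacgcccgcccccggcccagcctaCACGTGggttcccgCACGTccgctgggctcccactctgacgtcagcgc
Ldhb: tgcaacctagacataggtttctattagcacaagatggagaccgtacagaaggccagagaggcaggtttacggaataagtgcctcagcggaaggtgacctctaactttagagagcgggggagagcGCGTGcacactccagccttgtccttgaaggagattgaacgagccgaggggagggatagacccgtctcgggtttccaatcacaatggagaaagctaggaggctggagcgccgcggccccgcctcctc
The *Ldha* stretch held 5 matches, since each of its CACGTG palindromes counts on both strands as overlapping matches, and 25 CpG dinucleotides. *Eno1* and *Ldhb* held 1 match each and *Eno2* held none. These numbers depend on the start site. The 250 bases before the other *Eno1* start sites, at 150237197 and 150237224, overlap each other and held 2 matches each. Those before the other *Ldha* start site, at 46847082, held 1. In RefSeq windows of 300 bases around start sites, 14 of the 19 windows of the members (73.7%) held a match, against 43.8% of all 32851 windows of the table, but several windows of 1 gene overlap. The members' windows also had a median of 17 CpG dinucleotides against 7 over all windows, and both motifs contain a CpG. No match was found in the windows of *Gpi1* and *Eno2*. A match describes the letters only and binding was not measured.

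All 10 genes were higher in TRAP than in INPUT, with fold changes from 1.57 for *Eno2* to 3.19 for *Hk1*. With the fraction as the only term, limma called all 10 higher and 0 lower at an adjusted p under 0.05. Over all 14249 genes tested, 23.2% were called higher and 24.8% lower. Once the pool was added as a block, so that each TRAP library was set against the INPUT of its own pool, 9 of the 10 were called higher and 0 lower, and *Eno2* was not called. In this fit 15.4% of all genes were called higher and 16.8% lower. The median log2 fold change of the members was 1.10, against -0.05 over all genes tested. Every TRAP library lay above every INPUT library for 9 of the 10 genes, all but *Eno2*, and 23.3% of all genes tested showed such a separation. Fold changes are the same in both fits, and adjusted p-values from both fits are given for each gene, without the block first. The SE given with the difference of a gene is that of the fit without the block. These SEs ran from 0.15 to 0.26 log2, and those of the blocked fit were larger for all 10 genes, from 0.22 to 0.36. In bulk tissue, fewer cells of a type and less RNA per cell cannot be told apart.

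**Figure D1:**
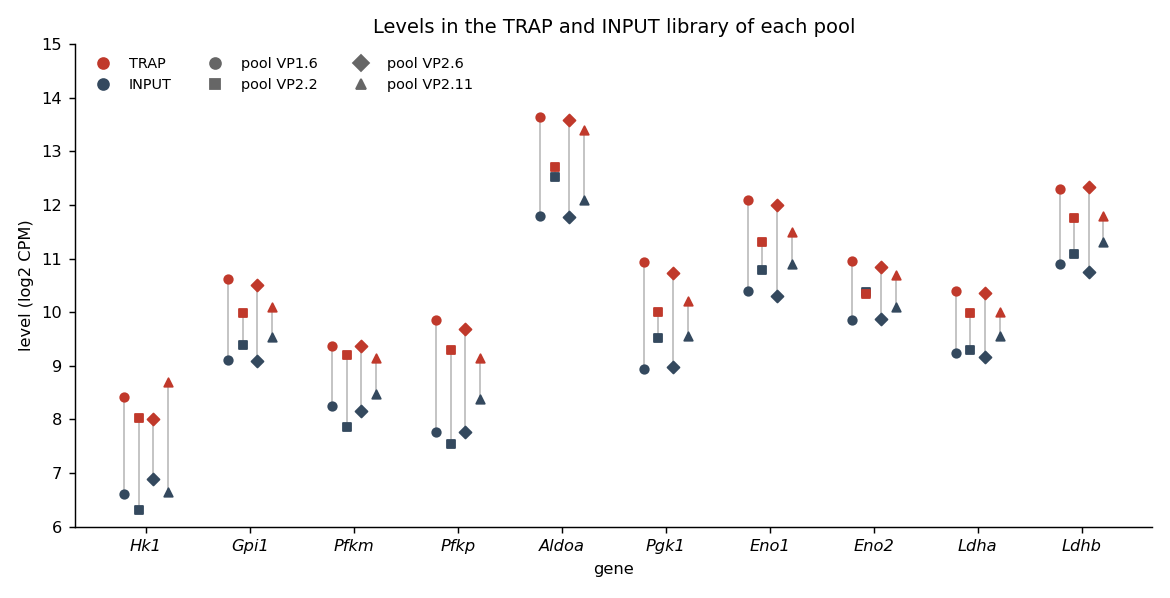
Levels of the 10 genes in each library, as log2 CPM on the y axis, with red symbols for TRAP, dark symbols for INPUT, a symbol shape for each pool and a line joining the libraries of 1 pool. TRAP sits above INPUT in every pool for 9 genes, and the exception is *Eno2* in VP2.2, with 10.34 in TRAP and 10.38 in INPUT.

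*Hk1* encodes the main hexokinase of brain, which traps glucose in the cell as glucose 6-phosphate and binds to mitochondria (chromosome 10, 62268855 to 62379908, minus strand, in GENCODE M21, GRCm38). Its levels in TRAP were 8.41, 8.02, 8.01 and 8.70 log2 CPM (pool VP1.6 first, then VP2.2, then VP2.6 and last VP2.11, an order kept throughout), and its levels in INPUT were 6.61, 6.30, 6.88 and 6.65. The fractions were far apart, with the lowest TRAP library more than 1 log2 unit above the highest INPUT library. The difference was 1.67 ± 0.19 (log2, SE, n = 4 libraries per fraction), with limma adjusted p-values of 0.00013 and 0.00012. On the deposited values it was the largest of the set, but not in some alternative fits given below. In CPM, mean levels were 319 ± 75.7 in TRAP and 98.8 ± 16.0 in INPUT (SD, n = 4). *Gpi1* encodes glucose 6-phosphate isomerase, which makes fructose 6-phosphate (chromosome 7, 34201330 to 34230336, minus strand). *Gpi1* reached 10.62, 9.98, 10.50 and 10.10 log2 CPM in TRAP and 9.11, 9.39, 9.09 and 9.53 in INPUT. Its fractions did not overlap, but TRAP VP2.2 and TRAP VP2.11 were much closer to INPUT than the other TRAP libraries. The difference was 1.02 ± 0.18 on the log2 scale (limma adjusted p = 0.0014 and 0.0081).

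Phosphofructokinase commits sugar to glycolysis and is its main point of control. *Pfkm* (muscle type, chromosome 15, 98092589 to 98132451, plus strand) stood at 9.36, 9.21, 9.37 and 9.14 log2 CPM in TRAP and at 8.25, 7.87, 8.16 and 8.48 in INPUT. Its TRAP libraries lay close to each other and all were above all INPUT libraries. The difference was 1.08 ± 0.15 on the log2 scale (limma adjusted p = 0.00039 and 0.0024). *Pfkp* (platelet type, chromosome 13, 6579768 to 6648777, minus strand) stood at 9.85, 9.29, 9.68 and 9.14 log2 CPM in TRAP and at 7.76, 7.55, 7.76 and 8.38 in INPUT. INPUT VP2.11 was the highest INPUT library for both genes and TRAP VP2.11 the lowest TRAP library, so that VP2.11 had the smallest difference of the 4 pools, 0.66 for *Pfkm* and 0.76 for *Pfkp*. For *Pfkp* the mean difference was 1.63 ± 0.21 on the log2 scale, near that of *Hk1* (limma adjusted p = 0.00028 and 0.00036). By coding transcript, 16.6% of the 75-base stretches of *Pfkp* also occur in transcripts of *Pitrm1*, a gene that overlaps it.

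*Aldoa* encodes aldolase A, which cuts fructose 1,6-bisphosphate into triose phosphates (chromosome 7, 126795234 to 126800751, minus strand). Its levels were 13.64, 12.71, 13.58 and 13.40 log2 CPM in TRAP and 11.80, 12.51, 11.77 and 12.10 in INPUT. The fractions did not overlap but came close in VP2.2, where TRAP exceeded INPUT by 0.20 log2, against 1.30 to 1.84 in the other pools. With means of 10625 ± 2726 CPM in TRAP and 4321 ± 1093 in INPUT (SD, n = 4), *Aldoa* ranked 4th of all genes in TRAP. The difference was 1.29 ± 0.26 on the log2 scale (limma adjusted p = 0.0028 and 0.014). *Pgk1* encodes phosphoglycerate kinase, the first step of glycolysis that makes ATP (chromosome X, 106187100 to 106203699, plus strand). *Pgk1* stood at 10.94, 10.00, 10.73 and 10.20 log2 CPM in TRAP and at 8.94, 9.51, 8.98 and 9.56 in INPUT. Its difference was 2.00 in VP1.6 and 1.75 in VP2.6 but 0.48 in VP2.2 and 0.64 in VP2.11, the widest range among pools of the set after *Aldoa*. The mean difference was 1.22 ± 0.24 on the log2 scale (limma adjusted p = 0.0023 and 0.0056). Of the 75-base stretches of its longest coding transcript, 67.5% also occur in pseudogenes such as *Pgk1-rs7* and *Gm5537*, so the level of *Pgk1* from uniquely mapped reads is uncertain.

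Enolase makes phosphoenolpyruvate. *Eno1* (alpha enolase, chromosome 4, 150236721 to 150248879, plus strand) stood at 12.09, 11.31, 12.00 and 11.50 log2 CPM in TRAP and at 10.40, 10.79, 10.31 and 10.90 in INPUT. All TRAP libraries were above all INPUT libraries, and TRAP VP2.2 and INPUT VP2.11 were the nearest. The difference was 1.13 ± 0.22 on the log2 scale (limma adjusted p = 0.0024 and 0.011). *Eno1* shares 64.2% of such 75-base stretches with *Eno1b*, which had its own row at 235 CPM in TRAP and 125 in INPUT, so reads of these genes could be split between them. *Eno2* (gamma enolase, chromosome 6, 124760053 to 124769673, minus strand) stood at 10.95, 10.34, 10.84 and 10.70 log2 CPM in TRAP and at 9.86, 10.38, 9.88 and 10.10 in INPUT. Its fractions overlapped, since TRAP VP2.2 was below INPUT VP2.2, whereas TRAP was above INPUT by 0.60 to 1.09 log2 in the other pools. The difference was 0.65 ± 0.18 on the log2 scale, the smallest of the set, and limma gave an adjusted p of 0.014, or 0.076 in the blocked fit. The 95% interval of the blocked fit, not adjusted for the number of genes, ran from 0.08 to 1.23. None of the 75-base stretches of *Eno2* occurs in another gene.

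*Ldha* encodes the A subunit of lactate dehydrogenase (chromosome 7, 46841475 to 46855627, plus strand). *Ldha* stood at 10.39, 9.99, 10.36 and 10.00 log2 CPM in TRAP and at 9.24, 9.29, 9.17 and 9.55 in INPUT. The fractions did not overlap, and INPUT VP2.11 again came nearest to TRAP. Its difference of 0.87 ± 0.16 on the log2 scale was the second smallest of the set on the deposited values (limma adjusted p = 0.0014 and 0.014). *Ldhb* encodes the B subunit (chromosome 6, 142490249 to 142507957, minus strand). *Ldhb* stood at 12.29, 11.76, 12.34 and 11.80 log2 CPM in TRAP and at 10.90, 11.08, 10.75 and 11.30 in INPUT. All its TRAP libraries were above all INPUT libraries, and VP1.6 and VP2.6 had differences of 1.39 and 1.58 against 0.68 in VP2.2 and 0.50 in VP2.11. The mean difference was 1.04 ± 0.20 on the log2 scale (limma adjusted p = 0.0022 and 0.016). A pseudogene, *Gm5514*, holds 16.7% of the 75-base stretches of *Ldhb*.

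The size of the difference depended on the pool. Over the 10 genes, the median TRAP minus INPUT was 1.597 log2 in VP1.6, 0.64 in VP2.2, 1.49 in VP2.6 and 0.62 in VP2.11. For 8 of the 10 genes, all but *Hk1* and *Pfkm*, the differences in VP1.6 and VP2.6 were both larger than those in VP2.2 and VP2.11. *Hk1* instead had its largest difference in VP2.11, 2.05, and its smallest in VP2.6, 1.12. Together the 10 genes made up 2.78%, 1.95%, 2.71% and 2.25% of the summed CPM in the TRAP libraries and 1.15%, 1.30%, 1.13% and 1.45% in the INPUT libraries, so that the share was higher in TRAP in all 4 pools. The rank correlation between TRAP minus INPUT and exon length over all genes, given as a description, was 0.57 in VP2.2 and 0.21 to 0.32 in the other pools. *Pfkp* and *Hk1* have the longest exon sequence of the set, 13401 and 8532 bases. *Pfkp* had the largest difference in VP1.6, VP2.2 and VP2.6 and *Hk1* in VP2.11. With the trend on exon length taken out in each pool, all 10 genes were still called without the block and 9 with it. Of all genes, 22.7% and 15.8% were then called higher. The order of the members changed, with *Ldhb* (1.52 log2), *Pgk1* (1.51) and *Aldoa* (1.46) above *Hk1* (1.35) and with *Pfkp* at 1.14.

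**Figure D2:**
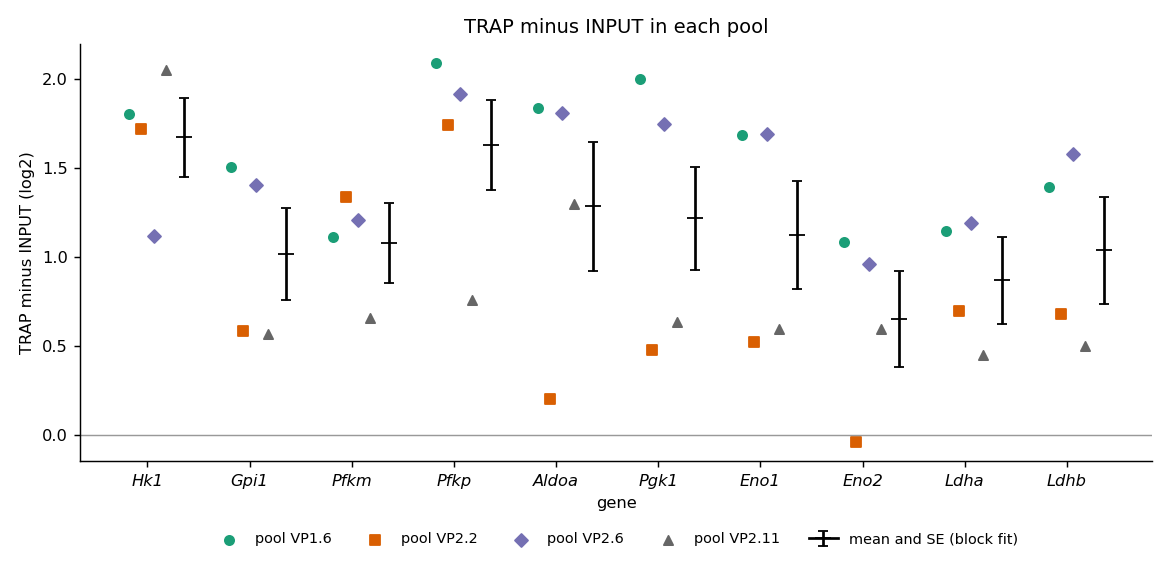
TRAP minus INPUT (log2) of each gene in each pool, coloured symbols, with the mean and its SE from the blocked fit in black. VP1.6 and VP2.6 lie above VP2.2 and VP2.11 for 8 genes, and the only value below 0 is *Eno2* in VP2.2, at -0.04.

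Calls of several genes in the blocked fit needed VP1.6 or VP2.6. Without VP1.6 only *Hk1*, *Pfkm* and *Pfkp* were called, and without VP2.6 only those 3 and *Pgk1* were called. Fewer genes passed overall in these fits, with 10.9% of all genes called higher without VP1.6 and 10.7% without VP2.6. The members' log2 fold changes then ran from 0.51 to 1.63 and from 0.55 to 1.86, with medians of 0.95 and 0.99. Without VP2.2 all 10 were called, *Eno2* included (14.9% of all genes), and without VP2.11 all but *Eno2* (13.1% of all genes). In the fit without the block, leaving out VP1.6, VP2.6 or VP2.11 ended the call of *Eno2* (limma adjusted p = 0.11, 0.10 and 0.054) and of no other member. Of all genes, 16.9%, 16.8% and 23.0% were called higher in these fits. The log2 fold change of every gene stayed positive in all fits with fewer libraries. CPM summed to different totals in the libraries, and the TRAP sum was higher than the INPUT sum by 0.24 to 0.35 log2 in 3 pools and lower by 0.14 in VP2.2. With all libraries rescaled to equal sums, a choice added after seeing the data, the members' median log2 fold change was 0.90 and that of all genes -0.25. Counts of members called stayed at 10 without the block and 9 with it, beside 14.6% and 8.97% of all genes called higher. The share of all calls that were higher in TRAP fell from 48.3% to 31.5% without the block and from 47.9% to 30.2% with it. Under quantile normalisation all 10 were called, but *Aldoa* fell to a log2 fold change of 0.52, *Eno2* to 0.35 and *Ldhb* to 0.65.

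**Figure D3:**
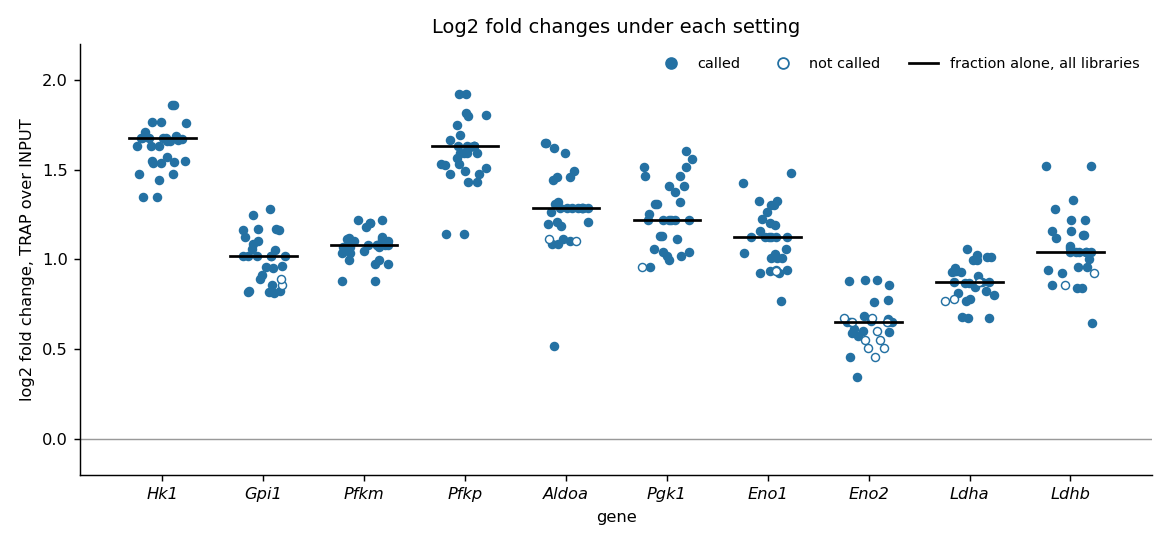
Log2 fold change (TRAP over INPUT, y axis) of each gene under each alternative setting, 1 point per setting, filled where the gene was called at an adjusted p under 0.05 and open where it was not, with a bar for the fit on all libraries with fraction alone. In the setting that required a log2 fold change of at least 1, genes below that size are open whatever their adjusted p. All points lie above 0, *Hk1*, *Pfkm* and *Pfkp* are filled in every setting, and *Eno2* has the most open points.

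Compared per kilobase of exon, the members spanned about 2 orders of magnitude in both fractions. In TRAP, *Aldoa* was highest at 3650 ± 936 CPM per kb (SD, n = 4), followed by *Ldhb* at 2742 ± 581, *Pgk1* at 653 ± 197 and *Eno1* at 645 ± 165. *Eno2* (360 ± 61.99) and *Ldha* (355 ± 53.7) came next, then *Gpi1* (199 ± 41.7) and *Pfkm* (185 ± 14.55), with *Pfkp* (54.8 ± 12.5) and *Hk1* (37.3 ± 8.87) lowest, all in CPM per kb. Neighbours whose ranges over libraries did not overlap were *Ldhb* and *Pgk1*, *Eno1* and *Eno2*, *Ldha* and *Gpi1*, and *Pfkm* and *Pfkp*. The ranges of the other neighbours overlapped. Within libraries *Aldoa* was above *Ldhb* in 4 of 4 TRAP libraries, *Gpi1* above *Pfkm* and *Pfkp* above *Hk1* in 3 of 4, *Eno2* above *Ldha* in 2 of 4 and *Pgk1* above *Eno1* in 1 of 4. In INPUT the order differed in 1 place, with *Eno1* at 293 ± 58.3 CPM per kb just above *Pgk1* at 276 ± 63.3. Exon length counts all annotated exons of a gene, so levels per kb depend on the annotation.

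Isoenzymes of 1 step were compared as the log2 difference of 2 genes within a library, with an exact two-sided permutation test over 4 TRAP and 4 INPUT libraries, whose smallest possible p is 0.0286, and Benjamini-Hochberg adjustment over the 7 pairs tested. With this smallest p, 5 of the 7 pairs would have to separate fully for any adjusted p to fall under 0.05. Of the 7 pairs, 3 separated fully, and an adjusted p of 0.067 is the lowest that 3 such pairs can reach. A test that pairs the libraries by pool cannot go below 0.125 with 4 pools, so no paired test was run. The permutation test thus ignores the pool, whereas the SE of each change is over the paired pools. The offset of a pair within a library holds the exon lengths of both genes, so only its change between fractions is compared. *Eno2* minus *Eno1* was -1.14, -0.97, -1.16 and -0.80 in TRAP and -0.54, -0.41, -0.43 and -0.80 in INPUT. The value was lower in TRAP in 3 of 4 pools and the same in VP2.11, where levels are rounded to steps of 0.1 log2. The change between fractions was -0.47 ± 0.16 log2 (SE over pools, n = 4, exact permutation p = 0.057, adjusted p = 0.080). *Ldhb* minus *Ldha* was 1.90, 1.77, 1.98 and 1.80 in TRAP and 1.66, 1.78, 1.59 and 1.75 in INPUT. The value was higher in TRAP in VP1.6 and VP2.6 and nearly the same in VP2.2, while the gap of 0.05 in VP2.11 is within the rounding of its levels. The ranges of the fractions overlapped, and the change was 0.17 ± 0.09 log2 (exact permutation p = 0.057, adjusted p = 0.080).

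*Pfkm* minus *Pfkp* was -0.49, -0.09, -0.31 and 0.00 in TRAP and 0.49, 0.32, 0.40 and 0.10 in INPUT. All TRAP values were below all INPUT values. The change was -0.55 ± 0.19 log2 (exact permutation p = 0.0286, adjusted p = 0.067). It turned to 0.06 (exact permutation p = 0.74) once the trend on exon length was taken out. *Hk1* minus *Hk2* was 7.01, 5.79, 6.53 and 7.61 in TRAP and 4.58, 4.90, 5.03 and 4.84 in INPUT, and all TRAP values were above all INPUT values. *Hk2*, an inducible hexokinase, was at only 3.06 CPM in TRAP and 3.46 in INPUT. The change was 1.90 ± 0.43 log2 (exact permutation p = 0.0286, adjusted p = 0.067). *Aldoa* minus *Aldoc* was 3.27, 2.49, 2.99 and 3.30 in TRAP and 1.5, 1.88, 1.65 and 1.5 in INPUT, again with no overlap. The change was 1.38 ± 0.28 log2 (exact permutation p = 0.0286, adjusted p = 0.067), and *Aldoc* itself was at 1288 ± 190 CPM in TRAP and 1378 ± 231 in INPUT (SD, n = 4). The transporter pairs showed no such separation. *Slc16a7* minus *Slc16a1*, the neuronal against the more widespread monocarboxylate transporter, changed by 0.08 ± 0.46 log2 (exact permutation p = 0.86, adjusted p = 1), and *Slc2a3* minus *Slc2a1*, the neuronal against the endothelial and glial glucose transporter, changed by 0.01 ± 0.28 (exact permutation p = 1, adjusted p = 1).

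**Figure D4:**
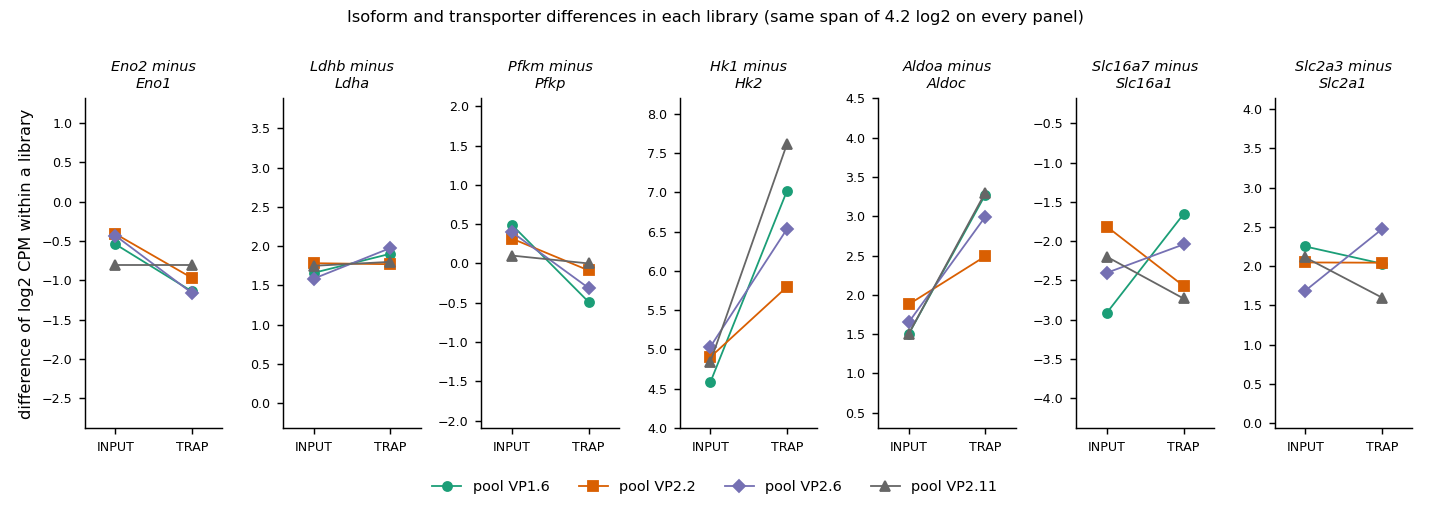
Difference of log2 CPM of 2 genes within each library (y axis), for INPUT and TRAP, with a line for each pool, in 7 panels that span the same 4.2 log2 units. All 4 lines go up for *Hk1* minus *Hk2* and *Aldoa* minus *Aldoc*, all go down for *Pfkm* minus *Pfkp*, and the lines cross for both transporter pairs.

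Other genes of the pathway did not all share the direction of the members. Of 21 other glycolytic enzyme genes, 16 had a row and were tested, and 5 were called higher in TRAP and 1 lower without the block, or 4 and 1 with it. Over all genes tested, the shares were 23.2% higher and 24.8% lower, or 15.4% and 16.8% with the block. Their median log2 fold change was 0.13. The payoff-phase genes *Gapdh* and *Pkm* were higher in TRAP, by 0.94 (limma adjusted p = 0.011 and 0.044) and 1.03 log2 (limma adjusted p = 0.0043 and 0.024). *Gapdh* shares 80.3% of its 75-base stretches with other genes, mostly pseudogenes, which makes its level uncertain. For *Pkm* the share was 19.6%. *Pfkl*, the liver-type phosphofructokinase, was higher by 0.78 log2 (limma adjusted p = 0.0016 and 0.013) and *Hkdc1*, a hexokinase-like gene at a mean of 4.74 CPM in TRAP and 0.463 in INPUT, by 2.69 (limma adjusted p = 0.0073 and 0.014). Its mean in TRAP was carried by VP2.11 at 13.7 CPM, and without that pool *Hkdc1* was at 1.68 to 1.86 CPM in TRAP with a log2 difference of 1.82. *Ldhd*, the mitochondrial D-lactate dehydrogenase, was higher by 0.73 log2 without the block and just missed the threshold with it (limma adjusted p = 0.0040 and 0.0504). *Bpgm*, which makes 2,3-bisphosphoglycerate in red cells, was lower by 1.05 log2, at 62.9 ± 13.4 CPM in TRAP and 128 ± 8.72 in INPUT (limma adjusted p = 0.00083 and 0.0027). *Tpi1* (0.38 log2), *Pgam1* (0.11), *Aldoc* (-0.09) and *Hk2* (-0.23) passed in neither fit. The blocked 95% intervals ran from -0.25 to 1.00 for *Tpi1* and from -0.66 to 0.47 for *Aldoc*.

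**Figure D5:**
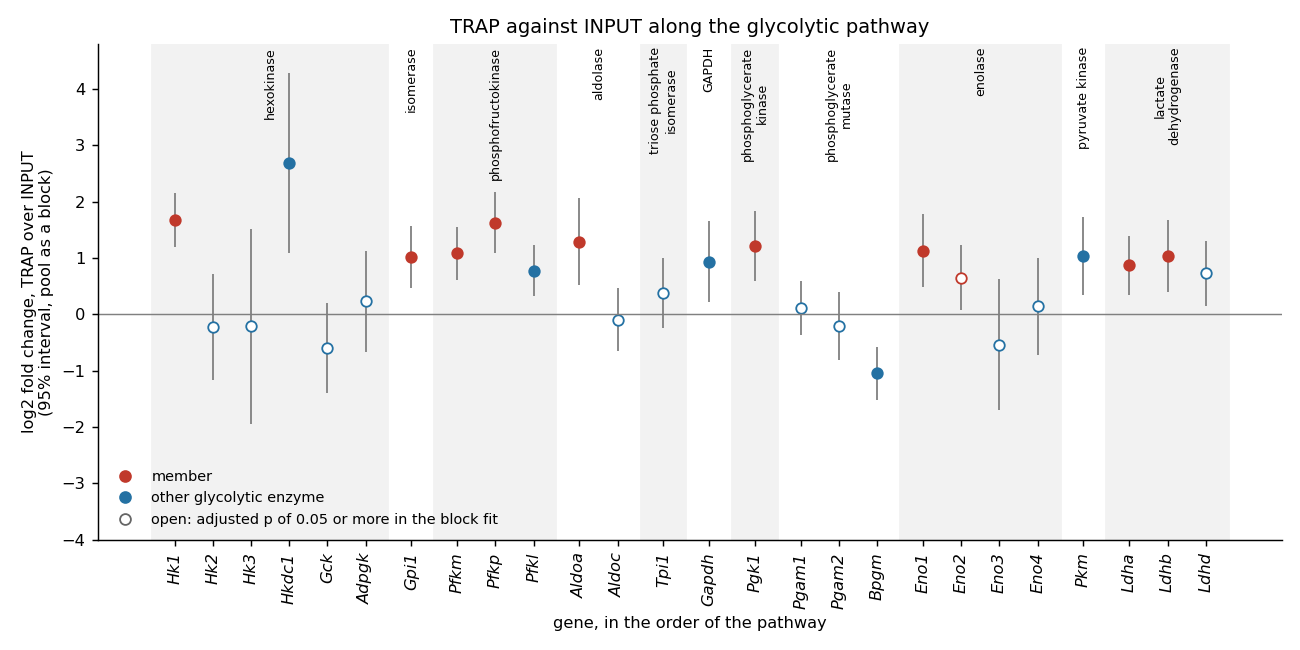
Log2 fold change of TRAP over INPUT (y axis) with 95% intervals from the blocked fit, for members (red) and other glycolytic enzymes (blue) in the order of the pathway, filled where the adjusted p was under 0.05. Filled red or blue points above 0 stand at the hexokinase, isomerase, phosphofructokinase, aldolase, GAPDH, phosphoglycerate kinase, enolase, pyruvate kinase and lactate dehydrogenase steps, and *Bpgm* is the filled point below 0.

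Genes that feed or drain the pathway gave mixed counts. The shares over all genes, beside which these counts stand, were 23.2% higher and 24.8% lower, or 15.4% and 16.8% with the block. The lists are short, several counts lie near these shares, and no list was tested as a set. Of 8 tested glucose and lactate transporter genes, 4 were called higher without the block and 3 with it, and 0 lower. *Slc2a3* was higher by 0.68 log2 (106 ± 13.9 CPM in TRAP and 65.8 ± 7.43 in INPUT, SD, n = 4, limma adjusted p = 0.0027 and 0.026), and *Emb*, a chaperone of monocarboxylate transporters, by 1.30. *Slc2a1* was higher by a similar 0.67 log2 and passed only without the block (26.3 CPM in TRAP and 16.4 in INPUT, limma adjusted p = 0.029 and 0.076). *Slc16a1* (0.07 log2), *Slc16a7* (0.16) and *Bsg* (0.11) passed in neither fit. Of 5 regulators of phosphofructokinase, 2 were higher without the block and 1, *Pfkfb2*, with it (0.84 log2). Of 13 genes of pyruvate entry into mitochondria, 6 were higher and 3 lower without the block and 4 and 3 with it, and the 4 higher in both fits were the pyruvate dehydrogenase complex genes *Dlat* (1.38 log2), *Dld* (1.15), *Pdha1* (1.05) and *Pdhb* (0.82). The 3 lower in both fits were *Pdk4* (-3.02 log2, at only 0.640 CPM in TRAP and 2.96 in INPUT), which encodes a kinase that inhibits the complex, and both mitochondrial pyruvate carrier genes, *Mpc1* (-1.06, at 79.5 CPM in TRAP and 170.02 in INPUT) and *Mpc2* (-0.85). Of 10 genes of the shuttles that carry cytosolic NADH to mitochondria, 7 were higher and 2 lower, or 6 and 1 with the block. Both malate dehydrogenases were higher (*Mdh1* by 1.23 and *Mdh2* by 1.20 log2). *Gpd2*, the mitochondrial glycerol 3-phosphate dehydrogenase, was higher in both fits (1.12, at 234 CPM in TRAP and 111 in INPUT). *Gpd1*, the cytosolic glycerol 3-phosphate dehydrogenase, was lower in both fits (-0.88, at 26.6 CPM in TRAP and 47.9 in INPUT). Of 11 glycogen genes, 5 were higher, or 4 with the block, and 0 lower, including *Pgm2l1* (1.52 log2), which makes glucose 1,6-bisphosphate, and *Pygb* (0.88), brain glycogen phosphorylase. In the pentose phosphate pathway, 3 of 9 genes were higher and 2 lower, or 2 and 1 with the block. *Tkt* (transketolase) was higher by 0.96 log2, at 480 CPM in TRAP and 247 in INPUT. *Rpia* was lower by 1.68 log2, at only 0.979 CPM in TRAP and 3.00 in INPUT. Of 7 hypoxia-inducible factor genes and regulators, 2 were higher and 3 lower, or 1 and 1 with the block, namely *Hif1a* (1.02 log2) and *Vhl* (-0.82). The difference of *Hif1a* was 2.46 log2 in VP2.2 and 1.38 in VP2.11 but only 0.14 in VP1.6 and 0.10 in VP2.6.

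Markers of cell types also differed between the fractions, and their counts stand beside the same shares over all genes. The vGluT2 neuron markers *Slc17a6* and *Neurod1* were higher in TRAP by 2.55 and 2.84 log2, and all 5 pan-neuronal markers were higher in the fit on fraction alone, or 4 in the blocked fit, with a median of 0.95. *Slc32a1*, the vesicular GABA transporter, was lower by 1.26 log2, while *Gad1* and *Gad2*, the other 2 of 3 GABAergic markers, stood at 613 and 528 CPM in TRAP and passed in neither fit. Of 7 astrocyte markers, 5 were lower in both fits, and their sum ranged from 334 to 513 CPM in TRAP and from 532 to 717 in INPUT. Of 6 oligodendrocyte markers, 5 were lower in both fits, with sums from 1220 to 2081 CPM in TRAP and from 4338 to 4498 in INPUT. The other, *Mag*, was higher in TRAP by 0.61 log2 and passed only without the block (105 CPM in TRAP and 69.7 in INPUT, limma adjusted p = 0.035 and 0.072). All 6 microglia markers were lower without the block and 4 with it (23.8 to 32.2 against 82.2 to 130.1 CPM), and all 4 hemoglobin genes of red cells were lower in both fits (49.8 to 71.7 against 605 to 2259 CPM). Of 4 endothelial and pericyte markers, 1 was higher, *Flt1*, and the sums overlapped (16.9 to 52.3 against 20.4 to 28.6 CPM). The lowest marker in TRAP was *Tmem119* of microglia, at a mean of 0.171 CPM, and log2 values do not show whether a library held any read of it. The part of these markers in the members' differences was not tested.

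Over the 8 libraries, the genes whose log2 levels followed each enolase and lactate dehydrogenase gene most closely had Pearson r values from 0.997 to 0.999, as a description in which the step between fractions and the pool both enter. For *Eno1* they were *Morf4l2*, *Gpi1* and *Stmn1*, and for *Eno2* they were *Maea*, *Srp72* and *Pld3*. For *Ldha* they were *Ncald*, *Cct3* and *Tuba4a*, and for *Ldhb* they were *Sars*, *Zcchc12* and *Scamp5*. *Gpi1* was the only member among these 12 genes.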

How the data were processed

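RNA of TRAP and INPUT fractions was sequenced from 4 pools of VP tissue. By the methods, reads were aligned by the authors with STAR (2.5.1a) against GRCm38 (Ensembl), uniquely mapped reads were assigned to genes by featureCounts, and TMM scaling and limma with voom and quality weights followed. The values the authors deposited are log2 CPM. INPUT VP1.6 and both VP2.11 libraries are rounded to 3 significant digits, so values of 10 log2 or more there come in steps of 0.1. No read totals are given with these values and the depth of each library is unknown. Further deposited columns hold the authors' comparison (log2 fold changes and their limits, p-values, test statistics and a signed fold change score) and other annotation, a transcript number per gene, and none of these were used.

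Of 14398 rows, 45 repeated a gene and were left out. Testing was limited to genes that exceeded 1 CPM in 3 or more libraries and used limma 3.58.1 (lmFit, eBayes with a trend) in R 4.3.3 on the deposited log2 values, with Benjamini-Hochberg adjustment over all 14249 genes and a threshold of 0.05. The fraction was the only term, and the pool was added as a block in an alternative. The pairing comes from the labels, which name the pool of each library, and from the methods, by which 1 homogenate gave both fractions. Deviations from the fraction means correlated at -0.75 to -0.49 within pools and 0.05 to 0.44 between pools, and the fit without the block can then call too many genes. The permutation tests of gene pairs also ignore the pool, so their p-values can be too small. Libraries are pools of different mice, and p-values measure the spread between pools. The fits were tested on simulated data in which libraries were drawn independently, without pools. Their error rate under the pairing of these libraries was therefore not tested. Gene positions, exon lengths and shared 75-base stretches came from GENCODE M21. Named genes were all members, any glycolytic enzyme or transporter gene with a row, up to 3 genes of each other list called in both fits, and the 3 genes most alike to each enolase and lactate dehydrogenase gene. *Gad1*, *Gad2*, *Mag*, *Pdha1*, *Pdhb*, *Mpc1*, *Mpc2* and *Gpd1* were named outside this rule after their values were seen. The members and lists were chosen with earlier results of these data known. Alternatives were another pseudocount (1), other filters, array weights, median centring, quantile normalisation, removal of the exon length trend, a log2 fold change of at least 1, equal sums and leaving out pools or libraries.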

Additional observations from a re-analysis of the deposited data

Results flagged for a closer look

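In 68 groups of 4 libraries, made of the glycolytic and transporter genes in each fraction, 1 library stood far from the other 3 in 2 groups by Dixon's 95% criterion, and chance would give about 3.4. No member was among them. *Hkdc1* was at 3.78 log2 CPM in TRAP VP2.11 and at 0.75 to 0.89 in the other TRAP libraries. *Bpgm* was at 5.43 log2 CPM in TRAP VP2.11 and at 6.07 to 6.18 in the other TRAP libraries.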

How the results depend on the processing

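With the pool as a replicate block, 9 members were called higher instead of 10, and without single pools in that fit the count ranged from 3 (without VP1.6) and 4 (without VP2.6) to 10. Over all settings that left out a pool or library, the count ranged from 3 to 10, and over the other settings from 8 to 10. No member was called lower in any setting. With a required log2 fold change of at least 1, 8 were called, without *Eno2* and *Ldha*, beside 9.97% of all genes called higher. *Eno2* kept its direction but missed the threshold in 10 of 29 alternatives. With array weights and the block all 10 were called. Quantile normalisation lowered the median log2 fold change to 0.79 and that of *Aldoa* from 1.29 to 0.52. The block moved the count of all genes called higher from 3300 to 2199 and of those called lower from 3530 to 2393.

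Taking out the exon length trend turned *Pfkm* minus *Pfkp* to 0.062, *Slc16a7* minus *Slc16a1* to -0.34 and *Slc2a3* minus *Slc2a1* to -0.34 log2, and moved *Ldhb* minus *Ldha* to 0.52 (exact permutation p = 0.0286). With a pseudocount of 1, *Eno2* minus *Eno1* was -0.47 with an exact permutation p of 0.0286, because this broke the tie between rounded values of VP2.11. Without single pools the pairs ranged from -0.63 to -0.39 for *Eno2* minus *Eno1*, 0.09 to 0.23 for *Ldhb* minus *Ldha*, -0.70 to -0.40 for *Pfkm* minus *Pfkp*, 1.61 to 2.23 for *Hk1* minus *Hk2*, 1.24 to 1.64 for *Aldoa* minus *Aldoc*, -0.31 to 0.36 for *Slc16a7* minus *Slc16a1* and -0.24 to 0.19 for *Slc2a3* minus *Slc2a1*. The causes were not tested. Values of single libraries carry no counting interval, since depth is unknown.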
